A study of Mus musculus with 30 samples.

Results

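The genes described here code for the proteins of the cytosolic ribosome. They were taken from the count table by symbol: Rpl or Rps followed by p0, p1 or p2, or by a number with an optional a, l or x. Of 30538 genes, 80 carried such a symbol, and 78 of them held at least 100 counts summed over 30 libraries. These 78 members, 31 of the small (40S) subunit and 47 of the large (60S) subunit, all passed the filter on low counts that left 13173 genes for testing. Below the minimum were Rpl10l with 10 counts and Rpl3l with 72 counts. The members nearest above it were Rpl39l with 504 counts and Rps27 with 2093 counts.

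The study measured polyA-selected RNA of cultured mouse bone marrow-derived macrophages by stranded sequencing and asked how inhibitors of oxysterol binding protein alter the response to lipopolysaccharide (LPS), a bacterial cell wall component. Cells were pretreated for 18 h with 5 µM 25-hydroxycholesterol (25HC, the oxysterol made by the enzyme Ch25h), 1 µM itraconazole (an antifungal drug) or 0.3 µM OSW-1 (a plant saponin), or left untreated, and then received 10 ng/mL LPS or no stimulus. The 10 groups of 3 libraries were, with LPS, wild-type (C57BL/6) cells given 25HC, itraconazole or OSW-1, untreated Ch25h-/- cells and untreated wild-type cells, and the same 5 kinds of cell without stimulus. Each genotype came from 3 mice, and each wild-type mouse gave a library to all 8 wild-type groups. The stimulation time is labelled 18, without a unit, for LPS and 0 for unstimulated cells, so time in culture and LPS cannot be told apart. No vehicle is named for the untreated cells. The 3 compounds were given at different doses, so their values are set side by side without a comparison between compounds.

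As background, the cytosolic ribosome translates nearly every message of the cell. Most of its proteins are needed in equal numbers, and many of them are joined with ribosomal RNA in the nucleolus. Most ribosomal protein messages start with a C followed by a run of pyrimidines, the 5′ terminal oligopyrimidine (TOP) motif, through which LARP1 and the kinase mTORC1 hold back or release their translation. That control acts on translation, whereas the measurements here are of message levels. Several members also act elsewhere: Rpl5 and Rpl11 join 5S ribosomal RNA and bind the p53 regulator Mdm2 when assembly is disturbed, and Rpl13a takes part in silencing inflammatory transcripts in myeloid cells.

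The start of the transcript is shown for 8 members because it carries the TOP motif and because these members differ in their response. RefSeq promoter windows were found for 57 of the 78 members. Each sequence covers 10 bases before and 20 bases from an annotated start (GRCm38.p6), read 5′ to 3′ on the gene's strand, and capitals mark the pyrimidine run that begins at the start. The first 4 sequences hold long runs and the last 4 belong to members whose values are followed below.
Rpl15, chr14:18270967-18270996, minus strand: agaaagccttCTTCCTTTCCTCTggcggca
Rps6, chr4:86857348-86857377, minus strand: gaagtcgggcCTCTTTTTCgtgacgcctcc
Rps18, chr17:33955646-33955675, minus strand: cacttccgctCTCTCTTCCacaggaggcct
Rpl35, chr2:39005112-39005141, minus strand: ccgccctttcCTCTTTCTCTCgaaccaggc
Rpl24, chr16:55966265-55966294, plus strand: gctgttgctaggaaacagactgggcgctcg
Rpl10a, chr17:28328461-28328490, plus strand: gcccccccagCggccgcaaactgcagcgcc
Rpl37a, chr1:72711250-72711279, plus strand: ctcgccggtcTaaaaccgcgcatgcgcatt
Rpl4, chr9:64173377-64173406, plus strand: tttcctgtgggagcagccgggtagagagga

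A C at the annotated start followed by 4 pyrimidines was found in 13 of the 57 members (22.8%) and in 3.01% of 27025 genes with a window. This match needs the exact annotated start, and the start used in these cells was not measured. A member without a match may still carry the motif: the window printed for Rpl37a lies wholly upstream of the gene's position given below. A C followed by 7 pyrimidines within 20 bases of the start was found in 50.9% of the members and 14.5% of all genes. Of other promoter motifs, CCGGAAG on either strand, the core bound by ETS-family factors, was present in 42.1% of the members and 9.93% of all genes. AAGATGGC on either strand, a YY1-type motif, was present in 8.77% against 3.19%. TATAAA on either strand, the TATA box, was present in 10.5% against 15.7%. A match is a description of the window and no evidence of binding.

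The members' counts took 0.561 to 1.24% of each library, and libraries held 23656860 to 43922154 counts. Levels below are counts per library size (CPM, the usual unit), with library sizes scaled by trimmed mean of M-values (TMM) factors. Per kilobase of reference transcript in untreated unstimulated wild-type cells, Rplp1, a protein of the acidic stalk that recruits elongation factors, had the highest level at 859 ± 31.5 CPM (SD, n = 3). It was followed by Rpl8 at 708 ± 31.1 CPM per kilobase, and Rps9, at 676, was close below Rpl8. Among the 77 members with a reference transcript length, which Rps4l lacked, the lowest levels were those of Rpl39l and Rps27. Rpl39l, a testis-enriched paralog of Rpl39, was at 0.538 and Rps27 at 6.09 CPM per kilobase.

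**Figure D1:**
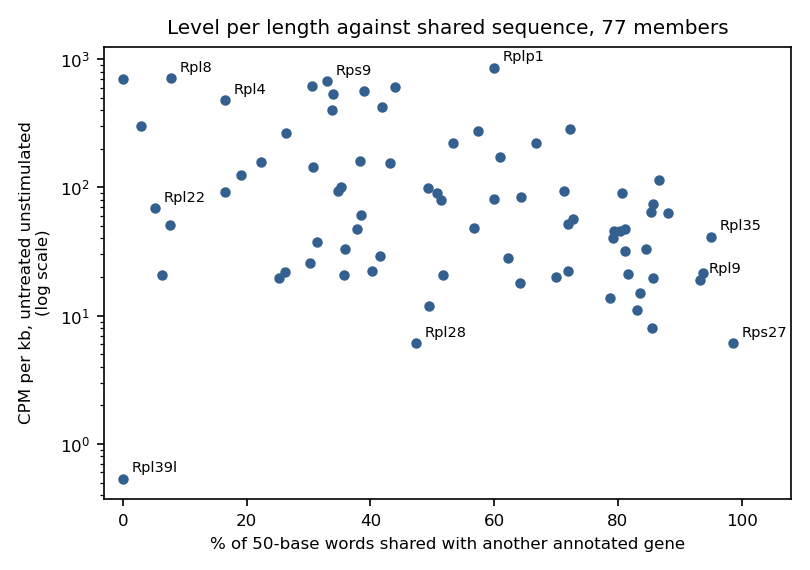
Level of 77 members per kilobase in untreated unstimulated wild-type cells (CPM per kilobase, log scale) against the percentage of 50-base words of the gene's exons that also occur in another annotated gene. Each point is 1 member. Rps27, with 98.6% of its words shared, sits at 6.09, while Rpl8, with few shared words, sits at 708, and the relation is loose (Pearson's r = -0.29, Spearman's rho = -0.36).

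Mouse ribosomal protein genes have many processed pseudogenes, and the handling of reads that match several places is not stated. The share of a member's 50-base words found in another gene was -0.29 correlated (Pearson's r across 77 members, which share libraries; Spearman's rho = -0.36) with its level per kilobase. Rps27 held 2093 counts over all libraries, whereas Rps27rt, a near-identical copy, held 131617 counts. Genes named as pseudogenes of a member held 505116 counts, which is 5.31% of the members' counts plus their own. Levels of members that share much sequence are therefore uncertain, and their fold changes carry the same limit: the share of words was 93.8% for Rpl5, 88.1% for Rpl10a, 85.6% for Rpl3, 81.7% for Rpl24 and 71.3% for Rps2.

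In 20 libraries every count was even, whereas the 3 libraries of OSW-1 with LPS, the 6 Ch25h-/- libraries and the 25HC library without LPS of mouse 3 held odd and even counts. The LPS response with OSW-1, the comparison of OSW-1 with untreated cells under LPS, the OSW-1 difference of responses and both genotype comparisons cross this divide, and the 25HC comparisons hold the 1 library of mouse 3. With the counts of the even libraries halved, 62 members fell and 3 rose in the LPS response with OSW-1 (median -0.49), and values within libraries of the odd kind are given with the results under LPS. Of 9 macrophage markers, 8 were in the table, and their summed level was 19600 to 23900 CPM without LPS and 8220 to 27000 CPM with LPS, against at most 39.5 CPM for any list of markers of T, B, NK, dendritic, neutrophil, stromal, mast or erythroid cells. Ch25h, the gene targeted in the knockout, had 0.206, 0.114 and 0 CPM in Ch25h-/- libraries with LPS and 0.296, 0 and 0.0832 CPM without, against 0.978, 2.01 and 0.88 CPM in untreated wild-type libraries with LPS and 2.43, 2.45 and 1.5 CPM without.

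Ribosomal protein messages were lower with LPS in each of the 5 kinds of cell. As a share of all counts, the 78 members together took 0.694 ± 0.0406% (SD, n = 3) with LPS, against 1.06 ± 0.0243% without, in untreated wild-type cells, and 0.659 ± 0.0869% against 1.07 ± 0.0494% in Ch25h-/- cells. With 25HC the share was 0.684 ± 0.0384% with LPS against 1.09 ± 0.0275% without. With itraconazole it was 0.707 ± 0.087% against 1.13 ± 0.0328%, and with OSW-1 0.819 ± 0.0436% against 1.19 ± 0.0454%. In none of the 5 did a library with LPS overlap one without (exact permutation test, two-sided p = 0.1 each, the smallest that 3 against 3 allows, and 0.138 after Benjamini-Hochberg adjustment over the 11 share comparisons made). The shares with LPS were also lower after the 10 most abundant other genes were left out, at 0.82% against 1.18% in untreated wild-type cells and 0.897% against 1.29% with OSW-1. Messages of the mitochondrial genome took a lower share too, at 1.06% with LPS against 1.63% without in untreated wild-type cells. With these messages left out, the members' share was 0.702% with LPS against 1.08% without in untreated wild-type cells, and 0.828% against 1.21% with OSW-1. The shares without these messages were not tested. In bulk RNA, fewer cells of a type and less of a message per cell cannot be told apart.

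**Figure D2:**
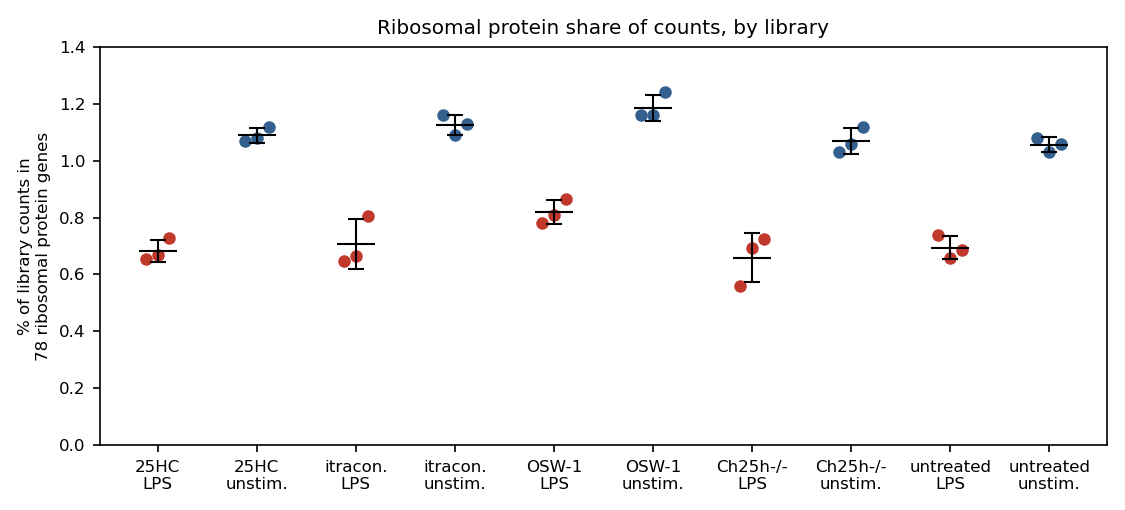
Share of each library's counts that fell in the 78 members, in percent, for the 10 groups. Points are libraries, red with LPS and blue without, and the bars are the mean ± SD of 3 libraries. Every library with LPS lies at or below 0.866% and every library without at or above 1.03%.

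Gene by gene, the tests used edgeR's quasi-likelihood fit of all 10 groups with Benjamini-Hochberg adjustment over 13173 genes, and a gene was called at an adjusted p under 0.05. In untreated wild-type cells 40 of the 78 members fell and 3 rose with LPS, where 30.1% of all genes fell and 30.7% rose, and the median log2 fold change was -0.3 over the members and -0.01 over all genes. In Ch25h-/- cells 59 fell and 1 rose (29.2% and 28% of all genes; member median -0.43). With 25HC 59 fell and 1 rose (33.3% and 30.5%; median -0.41), with itraconazole 62 fell and 1 rose (33.5% and 33.4%; median -0.48) and with OSW-1 63 fell and 3 rose (36.6% and 34.7%; median -0.51). Both subunits took part, with 13 of 31 small-subunit members lower (median -0.27) and 27 of 47 large-subunit members lower (median -0.33) in untreated wild-type cells. Without scaling beyond library size the median of all genes moved to between -0.36 and -0.18 in these 5 comparisons, and the calls in untreated wild-type cells split into 2275 higher and 6528 lower genes, against 4046 and 3961 with TMM. The members' median was then -0.65 in untreated wild-type cells, which lies -0.3 from that of all genes, against -0.29 with TMM.

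**Figure D3:**
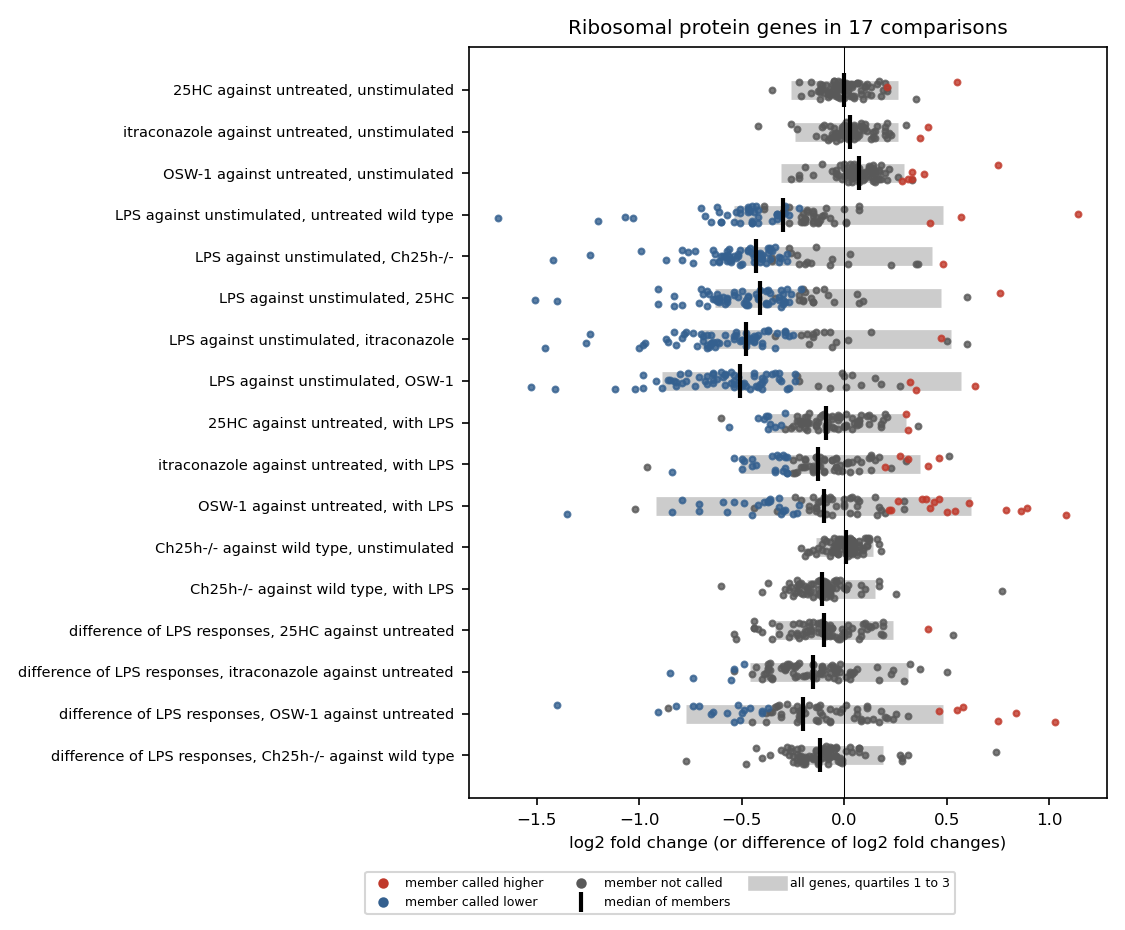
Log2 fold change of each member in 17 comparisons (1 point per member, red called higher, blue called lower, grey not called), with the members' median as a black bar and the quartiles of all tested genes as a grey band. In the 5 LPS responses the members' median lies between -0.51 and -0.3, with all 4 scalings tried below 0, and in the 3 comparisons of compounds without LPS it lies between 0 and 0.07.

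The member with the steepest fall in untreated wild-type cells was Rpl10a (chr17:28328471-28331033, plus strand, GRCm38), a protein of the large subunit's mobile L1 stalk. It had 13.7, 12.8 and 16.3 CPM with LPS, against 43.8, 46.7 and 47.7 CPM without. The groups lay far apart, and the log2 fold change was -1.69 ± 0.11 (SE; adjusted p = 6.1e-13). In the other cells the log2 fold change of Rpl10a was -1.42 in Ch25h-/-, -1.51 with 25HC, -1.46 with itraconazole and -0.85 with OSW-1, and each of these was called. Rpl3 (chr15:80077791-80091868, minus strand), which lies by the peptidyl transferase centre, had 43.8, 33.9 and 53.1 CPM with LPS, against 100, 97.1 and 103 CPM without. The groups did not overlap, and the log2 fold change was -1.2 ± 0.13 (adjusted p = 9.39e-09), with values between -1.4 (25HC) and -1.12 (OSW-1) in the other 4 kinds of cell, called in each. Rps2, a protein at the mRNA entry of the small subunit, had a log2 fold change of -1.07 ± 0.1 (adjusted p = 5.63e-10) in untreated wild-type cells and -0.32 with OSW-1. Rpl12, at the base of the acidic stalk, had -1.03 ± 0.1 and -0.58 in the same pair. Rps2 and Rpl12 overlap Snhg9 and Lrsam1 on the other strand, and Rpl10a overlaps a gene listed as CT025652.2 there. The counting strand is not stated, so part of their counts could belong to those genes. Over the 18 members with such an overlap, 13 were lower in untreated wild-type cells (median -0.45), and over the 60 without one 27 were lower (median -0.27). Over all genes 30.1% were lower there.

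Across the 5 LPS responses 36 of 78 members were called lower in every one, where 15.8% of all genes were, and 51 were called lower in at least 4. The 5 responses use separate libraries, though the wild-type ones come from the same mice. In 65 members the log2 fold change was below 0 in each response. The counts of 51 and 65 have no share over all genes beside them and are description only. The only member called higher in every response was Rpl24 (chr16:55966275-55971435, plus strand), which joins the subunits at a bridge and is haploinsufficient in the mouse Belly spot and tail mutant. It had 26.4, 18.5 and 18.5 CPM with LPS, against 13.9, 14.5 and 14.5 CPM without, in untreated wild-type cells (log2 fold change 0.57 ± 0.12, adjusted p = 0.000199). The groups did not overlap, and mouse 1 stood above the other two. With 25HC Rpl24 had 24, 22.1 and 20.4 CPM with LPS, against 12.9, 13.8 and 12.6 CPM without. The log2 fold change was 0.76 with 25HC, 0.48 in Ch25h-/- cells, 0.47 with itraconazole and 0.35 with OSW-1. The OSW-1 call ended without the LPS library of mouse 3 (0.27, adjusted p = 0.0664) or the unstimulated library of mouse 2 (0.29, adjusted p = 0.0589). Without scaling beyond library size Rpl24 stayed above 0 but was not called in 4 of the 5 responses, with 0.21 in untreated wild-type cells. Rpl24 shares exons with Gm28037 on its own strand, and 14.2% of all genes were called higher in every response.

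**Figure D4:**
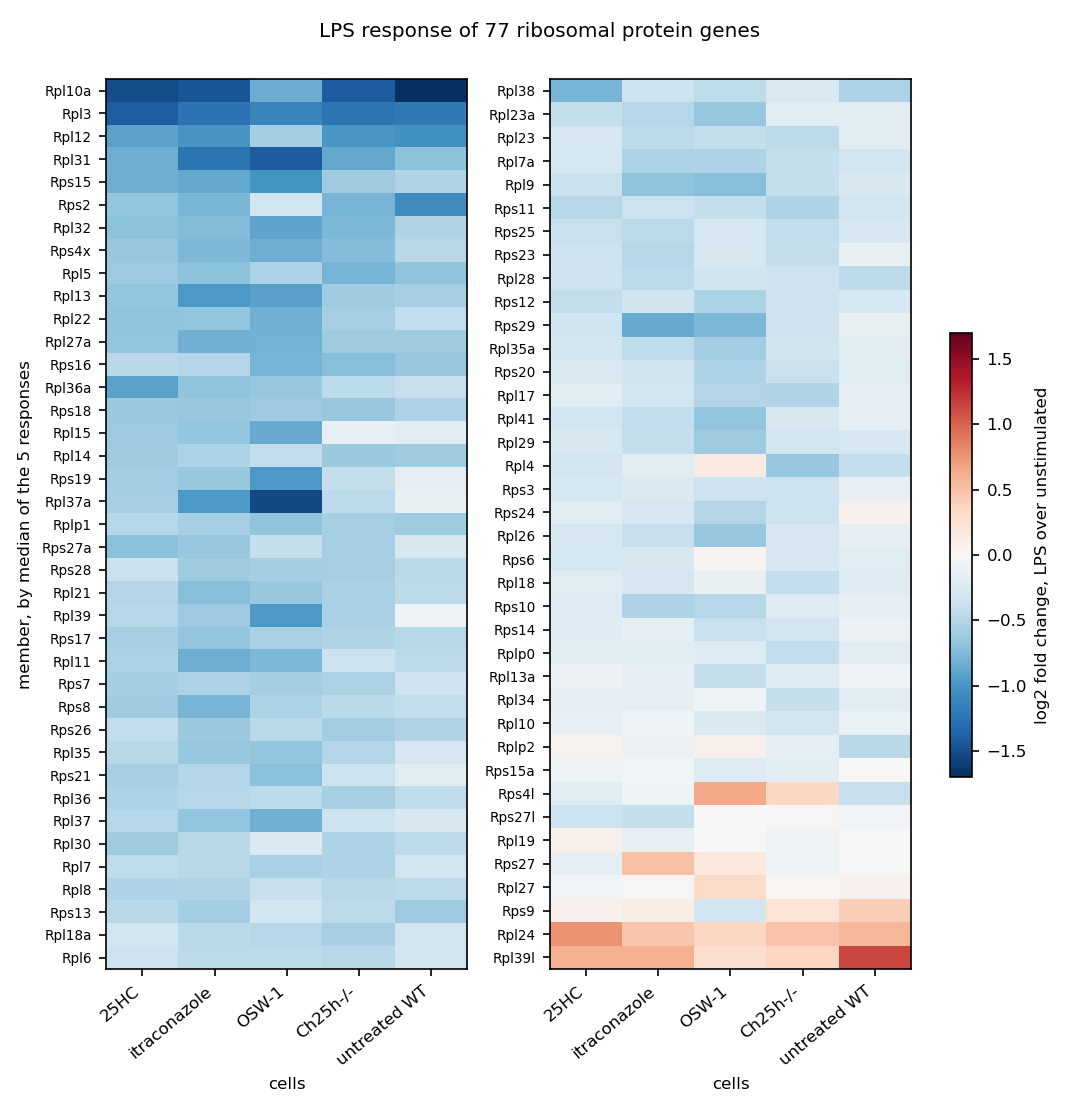
Log2 fold change with LPS over unstimulated for 77 of the 78 members (down the page, by the median of the 5 responses) in the 5 kinds of cell (columns). Blue is lower and red is higher with LPS. Rpl10a and Rpl3 head the left panel with -1.69 and -1.2 in untreated wild-type cells, Rpl37a is deepest with OSW-1 at -1.53, and Rpl24 and Rpl39l close the right panel, where Rpl24 is above 0 under every scaling tried.

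Rps9 and Rpl39l were the other members that rose in untreated wild-type cells. Rps9, next to the mRNA entry, had 789, 633 and 615 CPM with LPS, against 513, 463 and 548 CPM without (log2 fold change 0.42 ± 0.12, adjusted p = 0.0044), and without scaling beyond library size this was 0.07 and not called. Its log2 fold change was between 0.07 and 0.23, not called, in Ch25h-/-, 25HC and itraconazole cells and -0.32 ± 0.12 with OSW-1, where it fell. Rpl39l had 0.799, 1.14 and 0.912 CPM with LPS, against 0.284, 0.521 and 0.495 CPM without. That is a log2 fold change of 1.14 ± 0.47 (adjusted p = 0.0373) at a level where few reads decide. The call ended when the LPS library of mouse 2 was left out (0.99, adjusted p = 0.114), or that of mouse 3 (1.17, 0.0548), or the unstimulated library of mouse 1 (0.9, 0.149) or of mouse 3 (1.25, 0.0529).

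By place in the ribosome, both members of the 5S ribonucleoprotein fell in all 5 responses: Rpl5 by log2 values of -0.68 in untreated wild-type, -0.79 in Ch25h-/-, -0.62 with 25HC, -0.7 with itraconazole and -0.54 with OSW-1, and Rpl11 by -0.45, -0.37, -0.54, -0.83 and -0.77 in the same order. Of the 3 acidic stalk proteins, Rplp1 (-0.6) and Rplp2 (-0.47) fell in untreated wild-type cells, while Rplp0, a common reference gene for PCR, had -0.19 (adjusted p = 0.139) there and fell in Ch25h-/- cells (-0.42). Of 9 members that line the exit of the nascent chain tunnel, 3 fell in untreated wild-type cells, 6 in Ch25h-/-, 7 with 25HC, 8 with itraconazole and 8 with OSW-1, and none rose in any. The shares of all genes that fell were 30.1%, 29.2%, 33.3%, 33.5% and 36.6% in the same order. Of 9 members along the path of the mRNA, 4 fell and 1 rose in untreated wild-type cells and 8 fell in Ch25h-/- cells. A list of 5 members with roles outside the ribosome did not hold Rpl5 and Rpl11. None of its members was called in untreated wild-type cells, and 4 fell in each of the other 4 kinds of cell. Rpl13a in particular had a log2 fold change of -0.09 in untreated wild-type cells and -0.4, called, with OSW-1.

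Among members tied to disease or to paralog switching, Rps26 (mutated, like Rps19, in Diamond-Blackfan anaemia in humans) fell in all 5 responses by log2 values between -0.63 and -0.42. Rpl22, whose paralog Rpl22l1 lies outside the symbol pattern, fell in all 5 by values between -0.82 and -0.42. Rps6, the mTORC1 pathway's phosphorylation readout, had 27.5, 25.7 and 22.3 CPM with LPS, against 28.5, 29.8 and 28.4 CPM without, in untreated wild-type cells. These groups lay close together without overlapping, and the log2 fold change of -0.2 was not called (adjusted p = 0.109). Rps6 fell in Ch25h-/- cells (-0.28), with 25HC (-0.3) and with itraconazole (-0.27), though each of these calls ended without 1 of several libraries: 3 of the Ch25h-/- ones (-0.28 to -0.16), 2 of the 25HC ones (-0.27 and -0.26) and 4 of the itraconazole ones (-0.26 to -0.21). With OSW-1 Rps6 was at 0.04 (adjusted p = 0.77).

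Members were also split by the letters at the annotated start, which need not be the start used in these cells. In untreated wild-type cells 5 of the 13 members with a C and 4 pyrimidines fell (median -0.21), where 30.1% of all genes fell, against 22 of the 44 other members with a window (median -0.28). In Ch25h-/- cells the counts were 7 and 34 (medians -0.28 and -0.42), with 25HC 9 and 34 (-0.35 and -0.38), with itraconazole 10 and 33 (-0.45 and -0.52) and with OSW-1 9 and 35 (-0.43 and -0.53). Of all genes 29.2%, 33.3%, 33.5% and 36.6% fell in these 4 responses. No test was made of the difference. A further split was by sequence shared with other genes: of 10 members sharing under 20% of their words 3 fell and 1 rose in untreated wild-type cells (median -0.16), and of 33 sharing 60% or more 19 fell and 1 rose (median -0.33). In Ch25h-/- cells the same splits gave 8 of 10 lower (median -0.42) and 26 of 33 lower (median -0.46).

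Other genes of the translation machinery were followed in lists by function. Of 18 TOP messages that code for no ribosomal protein, 15 fell and none rose with LPS in untreated wild-type cells (median -0.45), and 15 to 17 fell in each of the other 4 kinds of cell. The smallest p-values were those of Npm1, a nucleolar histone chaperone (log2 fold change -1 ± 0.07), Nap1l1, another histone chaperone (-1.87 ± 0.13), the intermediate filament Vim (-0.95 ± 0.12) and the splicing factor Hnrnpa1 (-0.79 ± 0.1). Of 8 ribosomal protein genes outside the symbol pattern, 4 fell and 2 rose (median -0.3). Of 37 ribosome biogenesis factors, 13 fell and 3 rose (median -0.19), among them the nucleolar protein Ncl (-0.79) and the large-subunit assembly factor Wdr12 (-1.09). In Ch25h-/- cells 6 of the 37 fell and 11 rose (median 0.02), and with 25HC 21 fell and 2 rose (median -0.42). With itraconazole 9 fell and 13 rose (median 0.25), and with OSW-1 1 fell and 30 rose (median 0.98). In these 4 responses 29.2% to 36.6% of all genes fell and 28% to 34.7% rose. In untreated wild-type cells the 76 mitochondrial ribosomal proteins moved both ways, with 24 higher and 15 lower (median 0.05). Beside these list counts, 30.7% of all genes rose and 30.1% fell in untreated wild-type cells. All 10 cell division genes fell (median -4.84), and the transcription factor Myc, which drives ribosome production, fell by 2.46 on the log2 scale. Their part in the fall of the members was not tested.

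Without LPS few members were called with any compound. With 25HC 2 members rose and none fell, where 15.9% of all genes rose and 12.8% fell. With itraconazole 2 rose and none fell (14.3% and 12.3% of all genes), and with OSW-1 6 rose and none fell (20% and 17.2%). The members' medians were 0 with 25HC, 0.03 with itraconazole and 0.07 with OSW-1, against 0.01, 0 and 0 over all genes. With mouse as a block the counts were 5 with 25HC and 4 with itraconazole. The members' share of counts with OSW-1 was 1.19 ± 0.0454%, against 1.06 ± 0.0243% in untreated cells, and with itraconazole 1.13 ± 0.0328%, both without overlap (exact permutation test, two-sided p = 0.1, the smallest possible, adjusted 0.138). With 25HC it was 1.09 ± 0.0275% and overlapped that of untreated cells (exact permutation p = 0.3).

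The member called with all 3 compounds was Rps27a (chr11:29545846-29548109, minus strand), which is made as a fusion with ubiquitin. It had 32.9, 30.5 and 25.2 CPM with OSW-1, 26.2, 21 and 22.6 CPM with itraconazole, and 27.4, 26.3 and 23.4 CPM with 25HC, against 17.2, 17.2 and 18.3 CPM in untreated cells. Every treated library lay above every untreated one. The log2 fold changes were 0.75 ± 0.13 with OSW-1 (adjusted p = 5.6e-05), 0.41 ± 0.13 with itraconazole (adjusted p = 0.021) and 0.55 ± 0.13 with 25HC (adjusted p = 0.00229), all against the same 3 untreated libraries. The itraconazole call ended without its own library of mouse 1 (0.31, adjusted p = 0.127), or the untreated library of mouse 1 (0.39, 0.064) or of mouse 2 (0.39, 0.0558). Rps27a overlaps Clhc1 on the other strand and shares 72% of its words with other genes. The other members that rose with OSW-1 were Rpl10 (0.39 ± 0.07, adjusted p = 0.000207), a late-joining protein near the catalytic centre, Rpl4 (0.31), Rpl12 (0.33), Rpl9 (0.33) and Rpl14 (0.28). Rpl12 lost its OSW-1 call without the OSW-1 library of mouse 3 (0.28, adjusted p = 0.0558) or the untreated library of mouse 3 (0.28, 0.0656), and Rpl9 lost its call without any of 4 libraries (0.28 to 0.32). Rpl9 also lost its call with the counts of its pseudogenes added (0.23, adjusted p = 0.0666). The share of words found in other genes was 93.3% for Rpl9 and 85.4% for Rpl10. With itraconazole Rpl12 also rose (0.37, adjusted p = 0.00796), a call that ended without the itraconazole library of mouse 3 (0.3, 0.0537) or the untreated library of mouse 3 (0.32, 0.0517). With 25HC Rpl10 was at 0.21 (adjusted p = 0.0395), and it was not called when any 1 of the 6 libraries was left out, which left 1 member called with 25HC.

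More of the genes that assemble ribosomes were called in the same comparisons. Of 37 ribosome biogenesis factors 29 rose and none fell with OSW-1 without LPS (median 0.58), 28 rose with itraconazole (median 0.6) and 29 with 25HC (median 0.65). The shares of all genes that rose were 20%, 14.3% and 15.9% in the same order. The 5 snoRNA host genes, whose introns carry guides for ribosomal RNA modification, all rose with OSW-1 (median 0.85).

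Under LPS the compounds moved single members in both directions. With 25HC 2 members were higher and 10 lower than in untreated cells with LPS (20.8% and 21% of all genes). With itraconazole 5 were higher and 20 lower (26.4% and 27.9%), and with OSW-1 15 were higher and 24 lower (34.3% and 37%). The members' medians were -0.09, -0.13 and -0.1, against -0.01, -0.03 and -0.06 over all genes. For OSW-1 this median was 0.16, with 31 higher and 7 lower, without scaling beyond library size, where the median of all genes was 0.19, and it was 0.03 without the untreated LPS library of mouse 1. Without that library 7 members were called with 25HC and 14 with itraconazole; 6 were called with 25HC without its LPS library of mouse 1 or 2, and 12 and 15 with itraconazole without its own LPS library of mouse 1 and of mouse 2. Fitted on the 2 groups alone, 3 members were called with 25HC and 5 with itraconazole. The members' share of counts was 0.819 ± 0.0436% with OSW-1 and LPS, against 0.694 ± 0.0406% in untreated cells with LPS, without overlap (exact permutation p = 0.1, adjusted 0.138). All 3 compounds are set against the same 3 untreated libraries with LPS.

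The large-subunit protein Rpl37a (chr1:72711290-72713813, plus strand) had 10.3, 12.2 and 14.2 CPM with OSW-1 and LPS, 13.2, 17.2 and 22.3 CPM with itraconazole and LPS, and 20.9, 18.9 and 24 CPM with 25HC and LPS, against 36.2, 27.3 and 30.5 CPM in untreated cells with LPS. All treated libraries lay below the untreated ones. The log2 fold changes were -1.35 ± 0.16 (adjusted p = 2.13e-08) with OSW-1, -0.84 ± 0.15 (5.35e-05) with itraconazole and -0.56 ± 0.15 (0.00418) with 25HC. Without LPS the same compounds gave 0.05, 0.02 and -0.12, none called. The LPS response of Rpl37a was thus -1.53 with OSW-1, -0.98 with itraconazole, -0.57 with 25HC and -0.44 in Ch25h-/- cells, all called, and -0.13 (adjusted p = 0.475) in untreated wild-type cells. Its difference from the untreated response was -1.4 ± 0.21 with OSW-1 (adjusted p = 6.5e-06) and -0.85 ± 0.21 with itraconazole (adjusted p = 0.00438), and -0.44 ± 0.21 with 25HC, which was not called (adjusted p = 0.175).

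Rps19 and Rpl39 were also lower with each compound. Rps19, needed for maturation of the small subunit's RNA, had 54.7, 60 and 71.2 CPM with OSW-1 and LPS, against 120, 110 and 91.2 CPM in untreated cells with LPS. Rpl39, which lines the exit tunnel, had 25.8, 26 and 37.7 CPM with OSW-1 and LPS, against 59.6, 54.4 and 46.3 CPM. Neither pair of groups overlapped. The log2 fold changes of Rps19 were -0.79 with OSW-1, -0.49 with itraconazole and -0.42 with 25HC, and those of Rpl39 -0.84, -0.5 and -0.37, all called. The 25HC call of Rpl39 ended without the untreated LPS library of mouse 1 or 2 or the 25HC LPS library of mouse 1 or 2 (-0.38 to -0.29). It also ended when the compared groups were fitted alone (-0.36, adjusted p = 0.052). Rpl31, another protein of the tunnel exit, fell by 0.71 on the log2 scale with OSW-1 and by 0.5 with itraconazole, and had -0.26 with 25HC (adjusted p = 0.0853). Its itraconazole call ended when the compared groups were fitted alone (-0.5, adjusted p = 0.0694).

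Rpl4 (chr9:64173375-64178666, plus strand), a core protein of the tunnel wall, had 984, 1030 and 1030 CPM with OSW-1 and LPS, 764, 732 and 771 CPM with itraconazole and LPS, and 658, 704 and 688 CPM with 25HC and LPS, against 603, 533 and 513 CPM in untreated cells with LPS. The treated libraries all lay above the untreated ones. The log2 fold changes were 0.89 ± 0.09 (adjusted p = 3e-09), 0.46 ± 0.09 (0.000139) and 0.31 ± 0.09 (0.00699) in that order. Rpl4 shares 16.5% of its words with other genes. Rpl12 was also higher with each compound, at 0.79 with OSW-1, 0.41 with itraconazole and 0.3 with 25HC. The 25HC value of Rpl12 lost its call without the untreated LPS library of mouse 2 (0.21) or the 25HC LPS library of mouse 1 (0.29) or 3 (0.29). Fitted on the compared groups alone, Rpl12 was not called with 25HC (0.31, adjusted p = 0.171) or itraconazole (0.41, 0.0767). Rpl4 was then not called with 25HC (0.32, adjusted p = 0.0719). Members called higher with OSW-1 included Rpl10a (0.86 ± 0.11), Rps27a (0.61), Rps2 (0.54) and Rps13 (0.5), and Rps9 was lower (-0.71). Rps4l, a paralog of Rps4x, was at 1.08 ± 0.22 (adjusted p = 9.17e-05) with 5.62, 4.19 and 5.88 CPM with OSW-1 and LPS, against 1.72, 2.64 and 3.04 CPM in untreated cells with LPS.

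**Figure D5:**
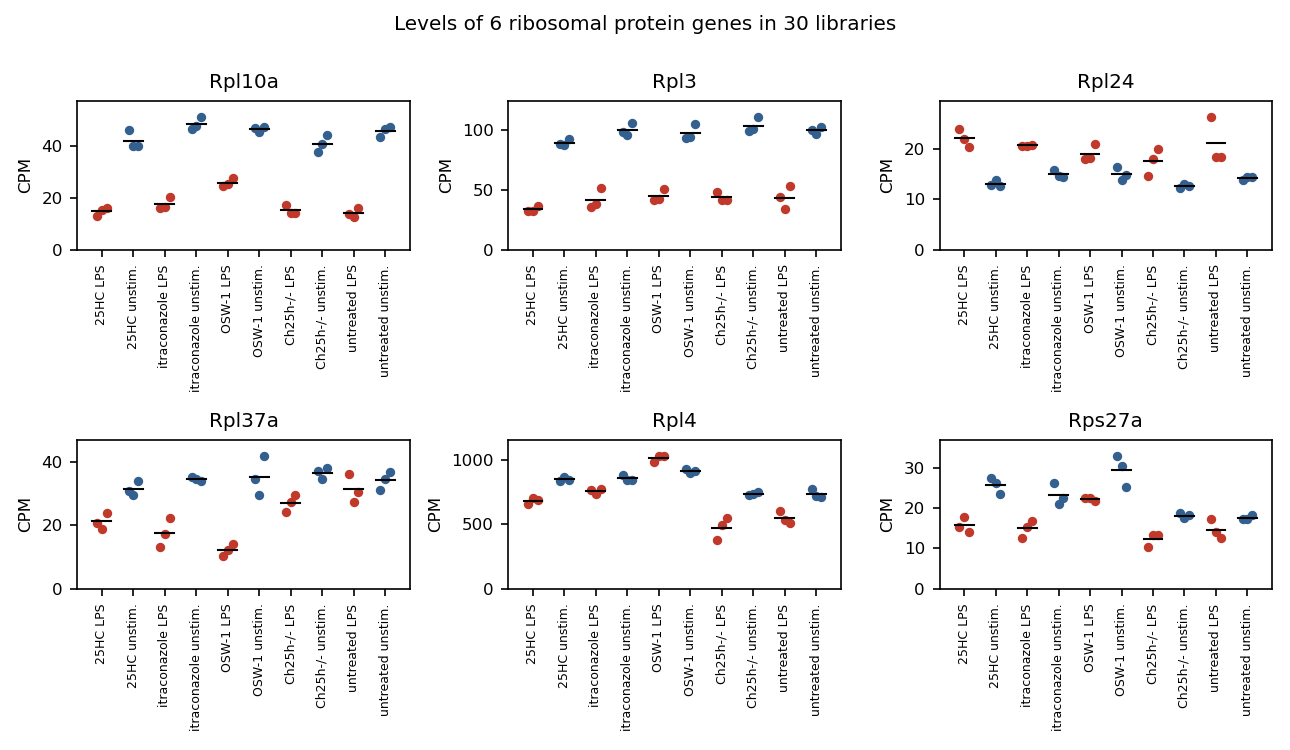
TMM-scaled CPM of 6 members in the 30 libraries, with LPS in red and unstimulated in blue, and the mean of each group as a bar. Rpl10a and Rpl3 are lower with LPS in all 5 kinds of cell, Rpl24 is higher, Rpl37a falls to between 10.3 and 14.2 CPM with OSW-1 and LPS, Rpl4 stands at 984 to 1030 CPM there, and Rps27a is raised by the compounds without LPS.

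The difference between the LPS response with a compound and that of untreated cells was tested gene by gene. With OSW-1 6 members had a higher and 17 a lower response (23.2% and 28.3% of all genes), with a member median of -0.2, which was -0.01 without scaling beyond library size, where all genes had a median of 0.14, and -0.09 without the untreated LPS library of mouse 1. Besides Rpl37a, the response was lower for Rpl39 (-0.91 ± 0.2), Rps19 (-0.82 ± 0.16) and Rps9 (-0.74 ± 0.17) and higher for Rps4l (1.03 ± 0.3), Rpl10a (0.84 ± 0.15), Rps2 (0.75 ± 0.14) and Rpl4 (0.58 ± 0.13). With itraconazole 5 members had a lower response and none a higher one (14.2% and 12.1% of all genes), and with mouse as a block 11 were lower and 1 higher. This count of 5 was between 1 and 3 without the itraconazole LPS library of mouse 1 or 2, the untreated LPS library of mouse 1, the itraconazole library without LPS of mouse 1 or the untreated library without LPS of mouse 3. It was 8 without the untreated LPS library of mouse 2 or 3 and 17 without the itraconazole LPS library of mouse 3. With 25HC 1 member, Rps2, had a higher response and none a lower one (5.21% and 6.8%). Its value of 0.41 (adjusted p = 0.0479) lost the call without any 1 of 10 libraries, and with mouse as a block 2 members were called.

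In libraries with odd counts, OSW-1 with LPS can be set against untreated Ch25h-/- cells with LPS. The genotype and the mice differ as well, so OSW-1 and the loss of Ch25h cannot be told apart in this comparison. There 17 members were higher and 12 lower, where 34.9% and 36.1% of all genes were, and the members' median was 0.03. Of the members named for OSW-1 under LPS, Rpl37a (-1.14), Rpl31 (-0.59), Rps9 (-0.56), Rps19 (-0.55) and Rpl39 (-0.54) were lower there too, and Rpl4 (1.1), Rps27a (0.85), Rpl12 (0.78), Rpl10a (0.76) and Rps2 (0.46) were higher. Rps4l (0.31, adjusted p = 0.198), Rps13 (0.25, 0.121) and Rpl22 (-0.12, 0.254) were not called in that comparison. The macrophage markers summed to 8220 to 9910 CPM with OSW-1 and LPS, against 16400 to 27000 CPM in untreated wild-type cells with LPS, with 7 of 8 lower and 1 higher (median -3.25). T cell markers, of which Cd8a was at 0 in every library, summed to at most 12.5 CPM with LPS. The part of these shifts in the members' values was not tested.

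The machinery that builds and rescues ribosomes was higher with OSW-1 under LPS. All 37 biogenesis factors rose (median 1.63, and 37 also without scaling), with the smallest p-values for Pes1 (1.41 ± 0.08) and Tsr1 (4.07 ± 0.22), which act in large- and small-subunit assembly, Nop14 (1.99 ± 0.12) and Wdr43 (2.08 ± 0.13). Of 9 chaperones of single ribosomal proteins 8 rose (median 1.45), among them Grwd1, the chaperone of Rpl3 (2.53 ± 0.22), Rrs1, which brings in the 5S particle (2.48 ± 0.19), and Ltv1 (2.33 ± 0.16). All 11 genes for ribosome rescue, recycling and dormancy rose (median 0.93), and Myc rose by a log2 fold change of 3.61 ± 0.31. Of 18 other TOP messages 5 rose and 5 fell (median 0.06), and 12 rose and 2 fell without scaling. With itraconazole 35 of the 37 biogenesis factors rose (median 0.77), and with 25HC 24 rose (median 0.43), none lower in either. Under LPS 34.3% of all genes rose and 37% fell with OSW-1, 26.4% rose with itraconazole and 20.8% rose with 25HC.

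The loss of Ch25h changed no member beyond the threshold. Without LPS none of the 78 was called between Ch25h-/- and wild-type cells with edgeR or with DESeq2. With edgeR 1 member had an unadjusted p under 0.05, against 1703 of all 13173 genes. In all genes 1 was called (0.00759%). With LPS none was called by edgeR, where 0.19% of all genes were. An unadjusted p under 0.05 was found by edgeR for 12 members and for 2244 of all 13173 genes. DESeq2 called 2 members, without a count over all genes to set beside them. The member farthest from 0 was Rps4l, with 3.92, 4.94 and 3.77 CPM in Ch25h-/- cells with LPS, against 1.72, 2.64 and 3.04 CPM in wild-type cells with LPS. Its log2 fold change of 0.77 was not called by edgeR (adjusted p = 0.122), though it was without the wild-type LPS library of mouse 3 (0.95, adjusted p = 0.0101), when 6 members in all were called, 1 higher and 5 lower. The difference between the LPS responses of the genotypes was called for no member by edgeR or DESeq2, and edgeR called 0% of all genes. Without the wild-type LPS library of mouse 3 it was called for 2 members. An unadjusted p under 0.05 was found by edgeR for 6 members and for 1460 of all 13173 genes. These p-values miss the threshold and do not show that the genotypes are alike.

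The small subunit's share of the members' counts was also taken. Small-subunit members took 47.3 ± 1.19% of the members' counts (SD, n = 3) with LPS, against 43.9 ± 0.177% without, in untreated wild-type cells, and 46.2 ± 0.336% against 44.2 ± 0.23% in Ch25h-/- cells. With 25HC they took 45 ± 0.365% against 43.9 ± 0.587%, and with itraconazole 44.5 ± 0.083% against 43.3 ± 0.427%. With OSW-1 they took 43.2 ± 0.493% against 43.6 ± 0.342%. Rps9 alone took 8.29 ± 0.192% of the members' counts with LPS, against 5.17 ± 0.274% without, in untreated wild-type cells. With Rps9 left out, the small-subunit share there was 42.6 ± 1.21% with LPS, against 40.9 ± 0.0621% without, and 41.3 ± 0.234% against 41 ± 0.195% in Ch25h-/- cells. It was then 41.1 ± 0.448% against 40.9 ± 0.554% with 25HC and 40.3 ± 0.181% against 40.4 ± 0.449% with itraconazole. With OSW-1 it was 40.2 ± 0.366% against 40.7 ± 0.333%. No test was made of these shares.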

How the data were processed

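The starting point was the deposited table of raw read counts per gene, 30538 genes in 30 libraries, which the authors made with FastQC 0.11.9, GSNAP, featureCounts of Subread 1.5.2 and GRCm38/mm10, with edgeR 3.26.8 also named, per the submitters' processing notes. The annotation release, the strand setting and the treatment of reads that match several genes are not given in the sources used here. In 20 libraries every count was even.

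Genes passed edgeR's filterByExpr at a count minimum of 10, and counts were scaled with TMM and fitted in 1 edgeR quasi-likelihood model of 10 groups of 3 libraries, from which 17 comparisons were drawn and p adjusted over 13173 genes (threshold 0.05). A standard error is the log2 fold change divided by the root of the F statistic. Libraries of 1 mouse enter as independent. Same-numbered libraries of a genotype come from the same animal per the labels, and a block for mouse was an alternative; residuals of same-mouse pairs correlated at a median of 0.086 in wild-type cells (36 of 84 pairs over 0.1), against -0.044 for other pairs. Values of 1 member are not reported here by name, though it is in the counts and medians. The members, lists and tests were chosen with earlier results of these data known. Named members are the 4 largest and 4 smallest fold changes among those called, the 3 farthest from the members' median, and a set of well-known genes. Members with a role in a stated comparison were also named after their values were seen (Rps13, Rps15, Rpl14, Rplp1 and Rplp2 among them), and of other lists up to 4 genes with the smallest p, plus Ncl, Wdr12, Myc and Grwd1.

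Transcript lengths and gene positions came from GENCODE vM21 on GRCm38, and transcript starts from RefSeq on GRCm38.p6. Simulated counts tested the fit: of genes moved 2-fold, 77.3% were called in the LPS comparison of untreated wild-type cells, of genes moved 1.5-fold 44.8%, and of genes moved 1.25-fold 2.99%. For the OSW-1 difference of LPS responses these were 59.1%, 13.4% and 2.99%. In these simulations 12973 of 13173 genes were left unmoved, and the moved genes were drawn from all levels. In the data 4046 genes were called higher and 3961 lower in the LPS comparison of untreated wild-type cells. The simulated rates therefore do not give the rate at which members would be called. Fits were run in R 4.3.3 with DESeq2 1.42.0, limma 3.58.1 and edgeR 4.0.16, and tables and plots were made with numpy 2.4.6, matplotlib 3.10.9, pandas 2.3.3 and Python 3.11.15.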

Additional observations from a re-analysis of the deposited data

Results flagged for a closer look

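Some members had an LPS response that differed from that of untreated wild-type cells, by the test of the difference between the 2 log2 fold changes (edgeR's quasi-likelihood test, adjusted p under 0.05). With OSW-1 the named members of this kind were Rpl37a (-1.4), Rpl39 (-0.91), Rps19 (-0.82), Rps9 (-0.74) and Rpl22 (-0.4), which had a lower response, and Rps4l (1.03), Rpl10a (0.84), Rps2 (0.75) and Rpl4 (0.58), which had a higher one. With itraconazole they were Rpl37a (-0.85), Rps29 (-0.74), Rpl39 (-0.55), Rpl31 (-0.54) and Rps19 (-0.49). With 25HC the member was Rps2 (0.41). The itraconazole calls of Rps29, Rpl39, Rpl31 and Rps19 and the 25HC call of Rps2 each ended when 1 of several libraries was left out. The OSW-1 differences cross the divide between libraries with even and with odd counts. The OSW-1 difference of Rpl22 was not called without scaling beyond library size (-0.21, adjusted p = 0.217).

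Genes named as pseudogenes of the members, which were added to the members' counts in 1 alternative setting and otherwise left out, held 5.31% of the members' counts plus their own.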

How the results depend on the processing

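The fall of the members with LPS was present under the settings tried: 36 members were lower in all 5 responses, where 15.8% of all genes were. The count was 31 to 41 with 1 library left out, 39 with the replicate block for mouse and 66 without scaling beyond library size. Without that scaling the median of all genes was below 0 too in the 5 responses, and no share of all genes is set beside the 66. The rise from 36 to 66 therefore cannot be read as particular to the members. In that setting 73 members were called in untreated wild-type cells, where more of all genes were also called lower than higher. The members' medians were -0.65 there, -0.7 in Ch25h-/- cells, -0.73 with 25HC, -0.77 with itraconazole and -0.66 with OSW-1. The same setting gave 5 calls with itraconazole without LPS, medians of -0.02 with itraconazole and 0.16 with OSW-1 against untreated cells with LPS, -0.01 for the OSW-1 difference, and 0.03 (adjusted p = 0.817) for Rpl22 with OSW-1 and LPS, the 1 named member whose direction turned. The 25HC difference of LPS responses had 0 calls without scaling, with TMM factors made without the members, without the filter, with pseudogene counts added (chosen after seeing the data) and when the compared groups were fitted alone.

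With the replicate block 5 members were called with 25HC and 4 with itraconazole without LPS, and 2 and 12 for the 25HC and itraconazole differences; the block moved no other count by over 1.5 times. Fitted on the compared groups alone, the calls were 6, 5 and 10 with 25HC, itraconazole and OSW-1 without LPS, 3 and 5 with 25HC and itraconazole under LPS, and 2 for the itraconazole difference. Without the filter, or with pseudogene counts added, 1 member was called with 25HC without LPS. DESeq2 called 4 with 25HC without LPS, 2 between genotypes with LPS and 11 for the itraconazole difference. With Ch25h-/- LPS libraries as reference (chosen after seeing the data) the OSW-1 median was 0.03.

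With 1 library left out, calls without LPS numbered 1 to 1 with 25HC and 1 to 2 with itraconazole. Under LPS they numbered 6 to 12 with 25HC and 12 to 32 with itraconazole, and 0 to 6 between genotypes, and the OSW-1 median lay between -0.17 and 0.03. For the differences of LPS responses they numbered 0 to 3 with 25HC, 1 to 17 with itraconazole and 0 to 2 between genotypes, and the OSW-1 median lay between -0.27 and -0.09. The causes were not tested. Of all checks on named members, 4993 kept direction and call, 161 lost the call, 85 gained it and 1 reversed.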
